A study of Caenorhabditis elegans with 4 samples.

Results

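Chromosome V carried 302 of the 2515 CEH-39 binding regions in the combined list that the authors made from embryos of Caenorhabditis elegans. These 302 regions were chosen by their chromosome alone. They are described here by position, spacing, rank and presence in the list of each ChIP replicate, and they were set against the 2213 combined regions of the other 5 nuclear chromosomes. All animals were of strain OP169, which carries the unc119(ed3) mutation and the bombarded transgene wgIs169, in which ceh-39 is joined to TY1, EGFP and FLAG tags. The embryos were of both sexes, from worms kept at 20 degrees Celsius. Binding was mapped by ChIP-seq, in which chromatin crosslinked with 2% formaldehyde was pulled down through the EGFP tag of the factor by anti-GFP antibodies. Both groups came from this strain, with 2 ChIP libraries and 2 libraries of input (total DNA), and input was not analysed here. The map rests on 1 transgenic strain, and binding of the untagged protein was not measured. Nothing in the labels tells whether each replicate had its own culture, and differences between the replicates may be technical.

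CEH-39 is a homeodomain transcription factor of the ONECUT class. Its gene lies on the X chromosome, and it is known as an X signal element, one of the dose-sensitive factors by which the early embryo assesses its X chromosomes and sets the activity of the sex-determining gene xol-1. Chromosome V is the longest chromosome of this nematode. Worm autosomes have no single centromere. They are instead divided into a central part, which is rich in conserved genes and recombines rarely, and outer arms that recombine often and hold more repeats and fast-evolving gene families. The arms of V are known for their large families of chemoreceptor genes. Genes and sequence at the regions were not analysed here, because no genome or annotation of the WS220 build was used.

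CEH-39 regions were spread more thinly on V than on any other chromosome. Combined regions numbered 14.4 per Mb on V (95% exact Poisson interval 12.9 to 16.2) and 27.9 per Mb on the other chromosomes. Chromosome V made up 20.9% of the nuclear length (measured to the last region end found on each chromosome) and 12.0% of the combined regions. The ratio of densities was 0.517 (95% exact interval 0.457 to 0.584). Against single chromosomes it was 0.659 on IV, the next sparsest (0.565 to 0.769), and 0.602 on X (0.518 to 0.699). It was 0.551 on II (0.473 to 0.642), 0.419 on III (0.361 to 0.485) and 0.410 on I (0.355 to 0.473). No p-value is given for the density, because V was singled out with its low density already known. For the same reason, the intervals show counting error alone and are not a test against 1.

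The low density of V was present in each replicate list, to a lesser degree when the list was taken whole. Replicate 1 held 4533 regions on V, or 217 per Mb, against 321 per Mb on the other chromosomes, a ratio of 0.675 (0.654 to 0.697). Replicate 2 held 3044 regions on V, or 146 per Mb, against 202 per Mb elsewhere, a ratio of 0.721 (0.694 to 0.750). These lists are longer than the combined list, with 30000 and 19048 regions. Their best 2515 ranks, as many as the combined list holds, were also taken. They gave ratios of 0.531 (0.469 to 0.598) in replicate 1 and 0.577 (0.512 to 0.648) in replicate 2. The order of the other chromosomes differed between the lists. The chromosome next to V in density was X in replicate 1, where V had 0.845 of its density (0.811 to 0.881), and IV in replicate 2, where V had 0.804 (0.764 to 0.845). Joined into loci, the regions on V covered 0.634% of its length in the combined list, 9.24% in replicate 1 and 5.88% in replicate 2. These intervals cover counting error and take regions as independent, and the number of reads behind each list is unknown.

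**Figure D1:**
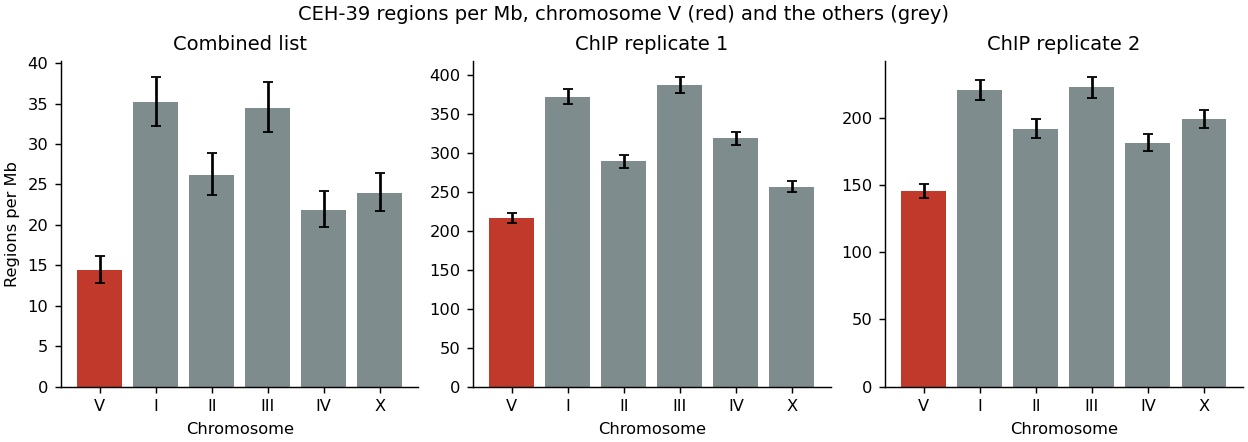
Regions per Mb on each chromosome in the combined list and in the lists of ChIP replicates 1 and 2, with 95% exact Poisson intervals as error bars. Chromosome V (red) is the lowest bar in each panel, at 14.4, 217 and 146 regions per Mb.

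V was sparsest relative to the other chromosomes among the highest-ranked regions. In replicate 1, 11 of the best 100 ranks lay on V, a density ratio of 0.474 (0.228 to 0.890), and at ranks 101 to 500 the ratio was 0.437 (0.308 to 0.604). At ranks 1001 to 2500 it was 0.552 (0.472 to 0.643), at ranks 10001 to 19048 it was 0.705 (0.665 to 0.746), and at ranks 19049 to 30000 it was 0.745 (0.708 to 0.783). Replicate 2 also had 11 of its best 100 ranks on V, a ratio of 0.469 (0.226 to 0.880). There the ratio was 0.517 at ranks 101 to 500 (0.374 to 0.700), 0.597 at ranks 1001 to 2500 (0.512 to 0.692) and 0.804 at ranks 10001 to 19048 (0.761 to 0.849). The intervals at ranks 101 to 500 and at ranks 10001 to 19048 did not overlap in either replicate. Within the combined list no such gradient was seen, though that list could hardly show one. Its highest score was shared by 991 of the 2515 regions (39.4%), which were ordered among themselves by peak number. Its V regions overlapped replicate regions of median best rank 1181.5 in replicate 1 and 1798 in replicate 2. The share of V was 12.1% of the first 503 regions by rank, 10.7, 13.9 and 10.1% of the next 3 sets of 503, and 13.1% of the last 503.

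**Figure D2:**
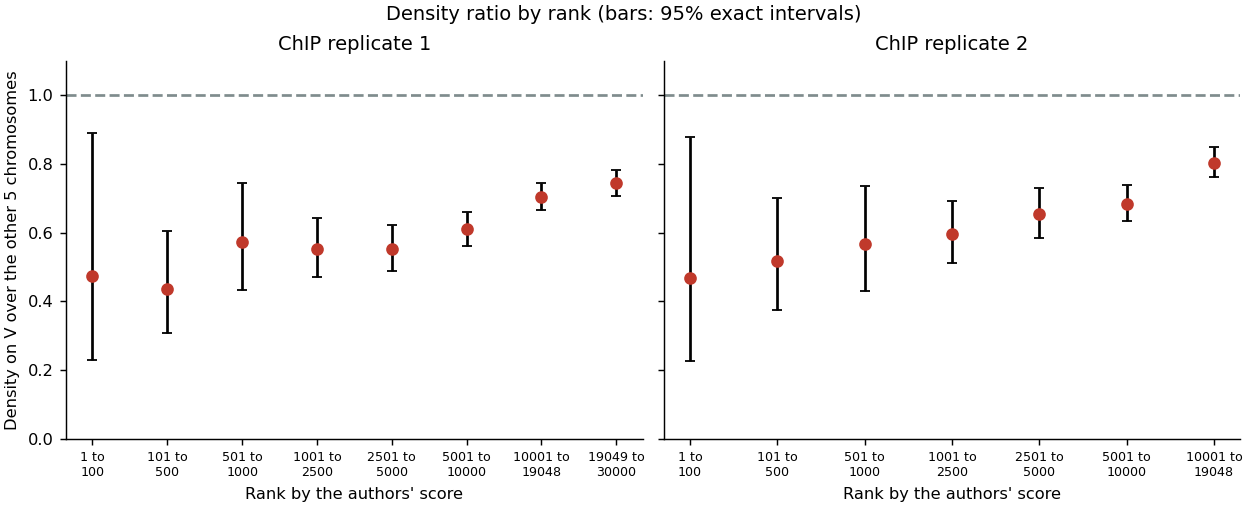
Density of regions on V divided by that on the other 5 chromosomes, for successive classes of rank by the authors' score in each ChIP replicate (points, with 95% exact intervals). Every point lies below 1 (dashed line), from 0.437 at ranks 101 to 500 of replicate 1 to 0.804 at ranks 10001 to 19048 of replicate 2.

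In the combined list, the profile along V had a broad maximum at and right of the centre and deep minima in both arms. From the left end to 20 Mb, the 20 complete 1-Mb bins of V held 2 to 27 combined regions, with a median of 16. The incomplete last bin of each chromosome, on V beyond 20 Mb, was left out. The 77 bins of the other chromosomes held 10 to 55, with a median of 28, and each of the 20 bins of V lay below that median. The fullest bin of V, from 11 to 12 Mb, held 27 regions, and its neighbours from 10 to 11 Mb and from 12 to 13 Mb held 19 each. The emptiest bin, from 17 to 18 Mb, held 2, and the bins from 2 to 3 Mb and from 3 to 4 Mb held 5 and 7. The 17 to 18 Mb bin was also the lowest of V in replicate 2, with 77 regions against a median of 147 over the bins of V. In replicate 1 it held 136 against a median of 191.5, and the lowest bins, with 127 each, lay from 8 to 9 Mb and from 16 to 17 Mb. The maximum of replicate 1 was not central. Its fullest bin, from 19 to 20 Mb, held 391 regions, against 206 from 11 to 12 Mb. Replicate 2 had its fullest bin from 11 to 12 Mb, with 187.

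When each chromosome was cut into 20 equal parts, V was below the mean of the other 4 autosomes in all 20 parts of the combined list, and below each of the 4 in 16. In replicate 2 these counts were 20 and 14, and in replicate 1 they were 18 and 15. The 2 deepest minima of the combined list were local minima of both replicate lists too. Between 10 and 15% of its length, V held 2.87 combined regions per Mb, against a mean of 21.3 on the other autosomes. In the same part, replicate 1 had 159 per Mb on V and 402 on the others, and replicate 2 had 83.2 on V and 167 on the others. Between 80 and 85% of its length, V held 3.82 combined regions per Mb, against 22.8 on the other autosomes. Replicate 1 had 88.9 per Mb there on V and 382 on the others, and replicate 2 had 80.3 on V and 175 on the others. Toward the right end the lists parted. In the last 10% of V, replicate 1 reached the mean of the other autosomes, with 423 and 408 regions per Mb on V in the 2 last parts, against 419 and 401 on the others. The combined list held 16.3 and 12.4 per Mb in these parts of V, against 30.6 and 24.5 on the other autosomes, and replicate 2 held 154 and 188 on V, against 203 and 198 on the others.

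**Figure D3:**
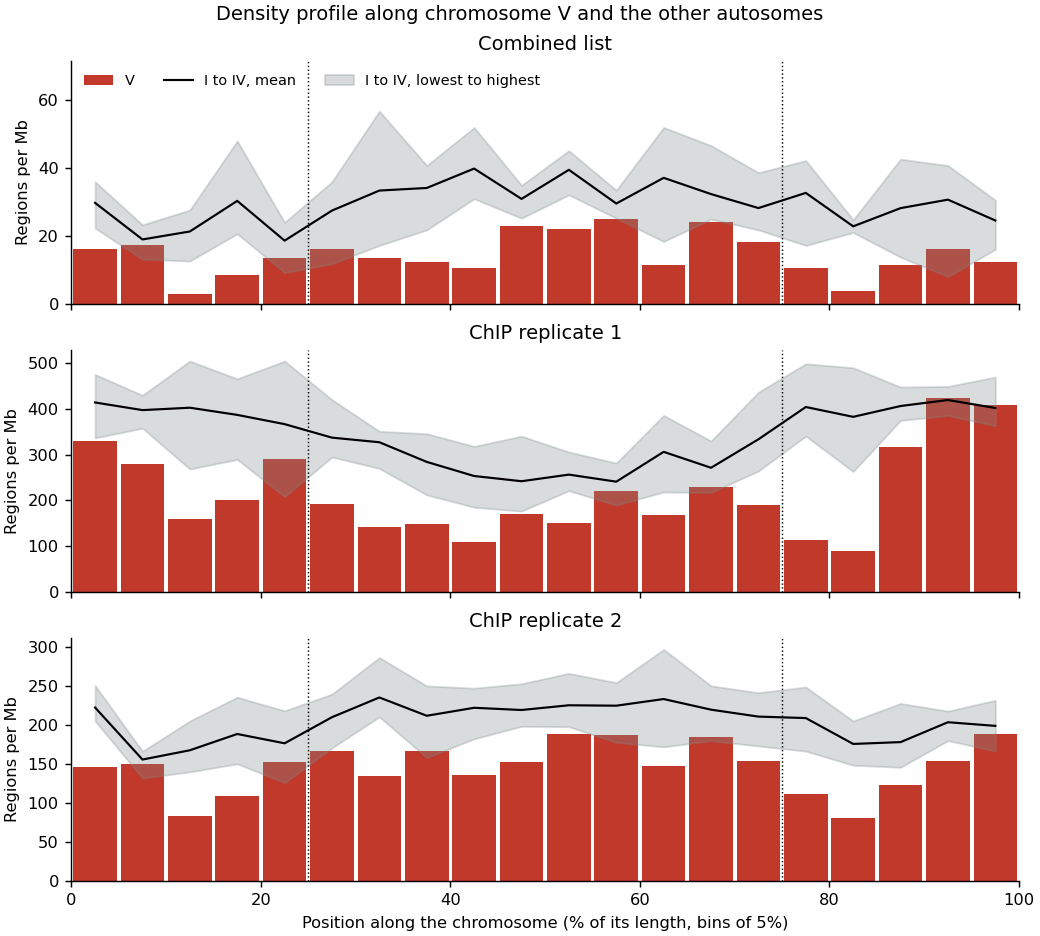
Regions per Mb in 20 equal parts of each chromosome, for V (bars) and for chromosomes I to IV (black line, mean; shading, lowest to highest), in the combined list and in each ChIP replicate; dotted lines mark the central 50%. V has local minima at 10 to 15% and 80 to 85% of its length in the 3 lists, with 2.87 and 3.82 combined regions per Mb, and in its last 10% it reaches the mean of the other autosomes in replicate 1 but not in the other lists.

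The central 50% of V held 184 of its 302 combined regions, or 60.9% (95% Wilson interval 55.3 to 66.3%), where 57.0% of all autosomal combined regions were central. The other 4 autosomes had 56.4% in their central 50%. The difference of 4.55 percentage points (-1.50 to 10.4) did not pass Fisher's exact test (two-sided, p = 0.148, Benjamini-Hochberg adjusted over 10 tests 0.247). From left to right, the 4 successive 25% parts of V held 61, 79, 105 and 57 combined regions. Set against the same parts of the other autosomes, V had 0.496 of their density at the left end (0.372 to 0.652), 0.464 left of the centre (0.361 to 0.590), 0.610 right of the centre (0.489 to 0.754) and 0.402 at the right end (0.299 to 0.531). The left and right outer 25% did not differ beyond counting error (61 and 57 regions, exact binomial test, two-sided, p = 0.783, adjusted 0.783). Replicate 1 had 39.8% of its V regions in the central 50%, against 41.7% on the other autosomes. Replicate 2 had 55.5% on V, against 54.1% on the other autosomes, so replicate 1 had the lower share both on V and on the other autosomes.

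Among better-scoring regions, V was more central than the other autosomes. Of the V regions with a rank in the upper 50% of the combined list, 102 of 151 (67.5%) were central. Such regions on the other autosomes were central in 54.6% (Fisher's exact test, two-sided, p = 0.0033, not adjusted). This p-value came from the alternatives tried, and over the whole combined list Fisher's exact test gave p = 0.148. Of the V regions in the lower-scoring part, 82 of 151 (54.3%) were central, against 58.1% on the other autosomes. The contrast within V, of 13.2 percentage points (2.24 to 23.8), gave p = 0.0248 in Fisher's exact test and 0.0621 after adjustment. On the other autosomes it ran the other way, at -3.53 points (-8.11 to 1.06, Fisher's exact p = 0.139, adjusted 0.247). The difference between V and the other autosomes in this contrast passed Zelen's exact test of equal odds ratios (two-sided, ratio of odds ratios 2.02, p = 0.0075, adjusted 0.0250), a test chosen after the split had been seen. As many of the best regions of each replicate as the combined list holds gave a central share on V of 58.6% in replicate 1 and 64.5% in replicate 2, against 54.3% and 58.3% on the other autosomes. Without adjustment, Fisher's exact test gave p = 0.172 in replicate 1 and p = 0.0382 in replicate 2.

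Neighbouring combined regions on V started 42.5 kb apart in the median (95% order-statistic interval 34.4 to 50.0 kb). Medians on the other chromosomes were 27.3 kb on IV, 26.1 kb on X, 20.0 kb on II, 17.1 kb on I and 15.8 kb on III. The middle of the distribution ran from 13.5 kb (25th percentile) to 95.8 kb (75th percentile) on V. The coefficient of variation of the spacing was 1.31 on V, within the 1.11 to 1.32 seen on the others. Gaps from the end of one region to the start of the next were set against the chromosome's own mean start-to-start distance. Those over 3 times that mean made up 5.32% of the gaps on V, against 5.49 to 7.78% elsewhere. Spacing on V was thus wider at each quartile, while its scatter relative to the mean lay within the range of the other chromosomes. Measured from the end of one region to the start of the next, with overlapping neighbours counted in, 12 of 301 gaps on V were under 1 kb (3.99%), against 6.60 to 8.38% on the others. Cut into 100-kb windows, 68 of 209 windows on V were empty (32.5%), against 5.33 to 14.5% on the others. Counts at these fixed limits depend on the density of regions.

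**Figure D4:**
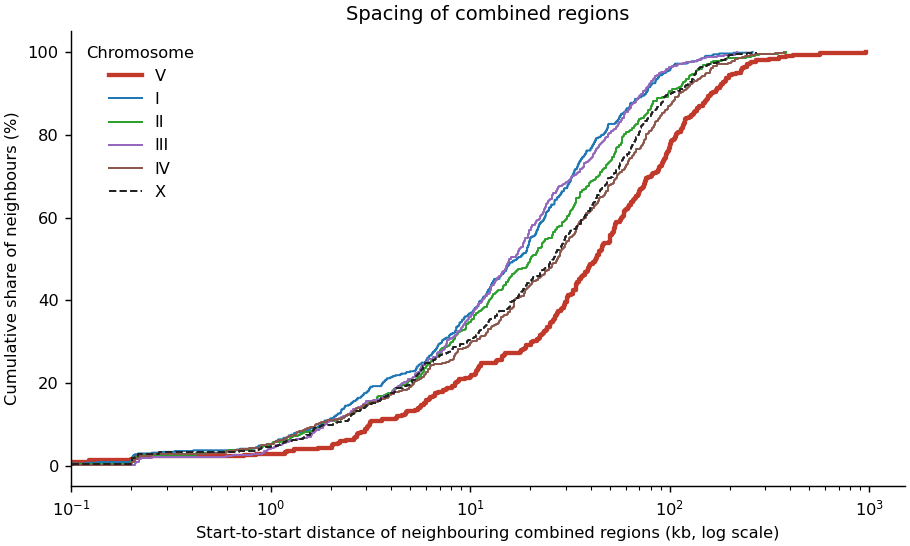
Cumulative share of neighbouring combined regions by their start-to-start distance (log scale, kb) on V (thick red) and on the other chromosomes. The curve of V lies to the right of the others over most of its course, with a median of 42.5 kb against 15.8 to 27.3 kb.

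Empty stretches of over 200 kb between combined regions numbered 17 on V, and 2 to 10 on each of the others (10 on IV, 6 on II, 3 on III, 3 on X and 2 on I). Their number also depends on the density and length of each chromosome. Together the stretches of V spanned 5.58 Mb, or 26.7% of the chromosome. Of the 17, 10 had their middle in the outer 25% at either end, 3 at the left and 7 at the right. The longest ran for 955 kb, from 16966091 to 17921499 on the right arm (WS220). It was bounded by a region at 16965627 to 16966090, of combined rank 1414, and by one at 17921500 to 17921699, of rank 140. The second, of 562 kb, ran from 2694839 to 3256817 on the left arm, and the third, of 412 kb, from 2281971 to 2694374. The pair was separated by 1 combined region, at 2694375 to 2694838, of rank 1341. The outer neighbours of this pair were at 2281507 to 2281970 (rank 2350) and at 3256818 to 3257281 (rank 1953). The fourth, of 383 kb, lay between 3759486 to 3759949 (rank 1121) and 4143061 to 4143524 (rank 1126). The fifth, of 354 kb, lay between 18179572 to 18180035 (rank 1465) and 18533577 to 18534040 (rank 2157).

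These stretches were empty in the combined list but not in the replicate lists. The longest held 100 regions of replicate 1 and 67 of replicate 2. The best of them ranked 1416 in replicate 1 and 754 in replicate 2, and 17 of the 100 overlapped a replicate 2 region. Over all 17 stretches, replicate 1 had 163 regions per Mb inside and 236 in the rest of V, a ratio of 0.691 (0.641 to 0.743). Replicate 2 had 100.4 inside and 162 in the rest of V, a ratio of 0.620 (0.565 to 0.680). The stretches were chosen for the lack of combined regions, and 86.4% of the combined V regions overlap both replicate lists, so these ratios and the counts of high ranks that follow are descriptions set in part by that choice. Of the 307 V regions within the best 2515 ranks of replicate 1, 5 lay in the stretches, and of the 332 such regions of replicate 2, 31 did. The best-ranked region inside any stretch ranked 1384 in replicate 1 and 435 in replicate 2.

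Part of the third stretch was empty in all 3 lists. The longest distance between neighbouring regions on V was 147 kb in replicate 1, from 2339002 to 2486430, and 245 kb in replicate 2, from 2344162 to 2589585. They shared 142 kb, from 2344162 to 2486430, with 0 regions in either replicate. This was the longest part of any chromosome free of regions of both replicates, against 100.6 kb on III and 48.9 to 69.6 kb on I, II, IV and X. V had 5 parts of over 50 kb free of both replicates, and the other chromosomes had 0 to 2 each. The number and length of such parts also depend on the density of regions and the length of each chromosome. Input coverage in these parts was not analysed here.

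Windows with many regions were rare on V. Such counts at a fixed limit depend on the density of regions, and clustering beyond that density was not tested. Of its 100-kb windows, 5 held 5 or more combined regions (2.39%), against 9.20 to 31.3% on the other chromosomes. The fullest, from 15000001 to 15100000, held 8, of which 5 shared the highest score, and they ranked 22 to 2472. The next, from 11900001 to 12000000, held 6, and each of the 6 overlapped regions of both replicates. Overlapping neighbours were counted as separate regions. The fullest window included the overlapping pair that starts at 15002155 and 15002278, and the next the pair at 11979962 and 11980028. Windows from 100001 to 200000, from 11000001 to 11100000 and from 19200001 to 19300000 held 5 each. In the first of these 3, at the left end, 3 of the 5 regions overlapped both replicates, and replicate 1 had 58 regions there against 22 in replicate 2.

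The highest-ranked regions of V overlapped both replicates in each of 20 cases. Such overlap is partly built in wherever a combined list is derived from the same 2 libraries. The score is the authors' own, and 115 V regions shared its highest value, so they were ordered among themselves by peak number. The highest V region, at 9344137 to 9344588, was of rank 2 in the whole combined list, and it overlapped the region of rank 11 in replicate 1 and the region of rank 1 in replicate 2. The next was at 10897225 to 10897506 (combined rank 12), at ranks 15 and 28 in replicates 1 and 2. The third was at 15002155 to 15002452 (combined rank 22), at ranks 31 and 53. These 3 regions thus stood near the top of each list and lay between 44.7 and 71.7% along the chromosome.

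The replicates ranked several of the others far apart. The fourth, at 18723690 to 18723938 on the right arm, was of rank 6 in replicate 1 and 785 in replicate 2. The region at 18079113 to 18079576 was of rank 96 in replicate 1 and 2071 in replicate 2. The region at 14415188 to 14415472 had ranks 100 and 843, and the region at 11228645 to 11229108 had ranks 59 and 655. The difference ran the other way at 1151297 to 1151760, the only one of the 20 in the left 25% of V, with rank 352 in replicate 1 and 30 in replicate 2. Ranks in the 2 lists lay less far apart for the regions at 7196512 to 7196752 (ranks 71 and 54), 6100681 to 6100916 (79 and 35), 9729772 to 9730030 (97 and 101) and 14685662 to 14685831 (113 and 104).

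Of the other regions among the 20, those at 9346868 to 9347040 (ranks 88 and 188), 11979962 to 11980122 (134 and 205), 7776078 to 7776541 (146 and 228) and 10466522 to 10466985 (169 and 109) lay in the central 50% of V. Those at 19522639 to 19523102 (163 and 62), 18967733 to 18967942 (112 and 317), 17921500 to 17921699 (214 and 88) and 20249614 to 20250077 (205 and 192) lay on the right arm. In all, 13 of the 20 were in the central 50%, 6 in the right outer 25% and 1 in the left. The 20 had a median rank of 98.5 in replicate 1 and 106.5 in replicate 2.

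The 20 highest V regions were closer to a neighbour in the median than V regions at large, a difference that was not tested. Their nearest combined region started 7.04 kb away in the median, with a range of 0 to 134 kb, against 21.9 kb over all 302. Overlapping neighbours were counted in. They were the nearest for the regions at 9344137, 11979962, 14685662 and 15002155, at 0 to 0.123 kb. The first and the ninth of the 20 started 2.73 kb apart. Yet 4 of the 20 bounded an empty stretch of over 200 kb, at 17921500, 18723690, 18967733 and 19522639, against 33 of all 302. Of the 20, 13 were narrower than the 464 bp of most combined regions. Over V as a whole 24 regions were narrower (7.95%), where 9.50% of all combined regions were, and 9.72% on the other chromosomes (difference -1.77 points, -4.63 to 2.02, Fisher's exact test, two-sided, p = 0.402, adjusted 0.503). Each of the 24 overlapped both replicates. Overlapping neighbours numbered 7 pairs, and in each pair both members met the same best-ranked replicate 1 region. In 4 of the pairs at least 1 member was narrower, and in the pair at the top of V both were, with regions of ranks 2 and 383 that started at the same base.

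At the other end of the list, the 5 lowest V regions had combined ranks 2499 to 2513. Those at 5204131 to 5204594 (ranks 2252 and 5851 in replicates 1 and 2), 1264172 to 1264635 (2472 and 4615) and 16000150 to 16000613 (3840 and 1302) overlapped both replicates. Those at 19897466 to 19897929 and 19242481 to 19242944 overlapped a replicate 1 region alone, at ranks 1218 and 982. The lowest of V thus included regions that ranked well in 1 replicate and were not called in the other.

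**Figure D5:**
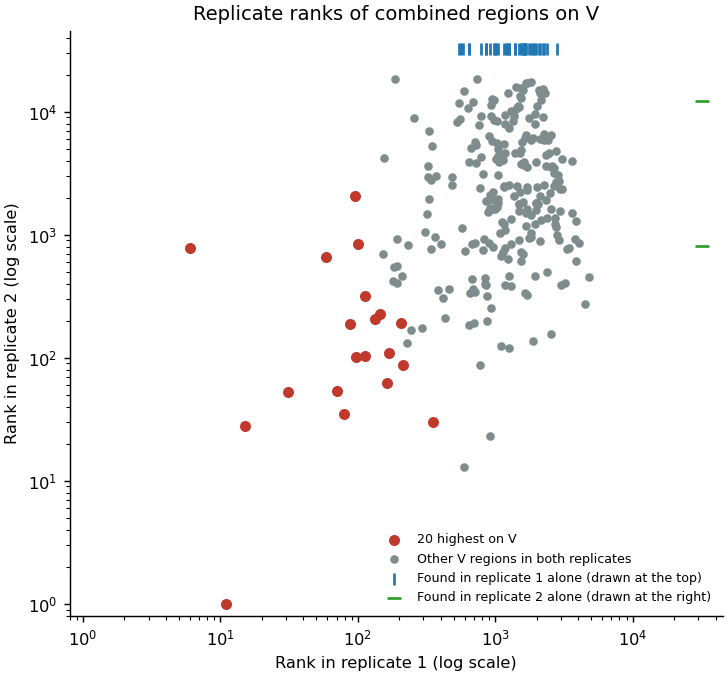
Best replicate 1 rank (x axis) and replicate 2 rank (y axis) of the regions that each combined region on V overlaps, both on log scales. The 20 highest V regions (red) lie at ranks 6 to 352 in replicate 1 and 1 to 2071 in replicate 2, and marks at the edges show the 39 and 2 regions found in replicate 1 or replicate 2 alone.

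Presence in the replicates did not differ between V and the rest beyond counting error. Of the 302, 261 (86.4%, 82.1 to 89.8%) overlapped regions of both replicates by at least 1 bp, where 88.0% of all combined regions did. The other chromosomes had 88.2%, a difference of -1.78 points (-6.29 to 1.91, Fisher's exact test, two-sided, p = 0.395, adjusted 0.503). Of the V regions, 300 overlapped replicate 1 (99.3%), where 99.4% of all combined regions did, and 263 overlapped replicate 2 (87.1%), where 88.5% of all combined regions did. Replicate 1 alone was overlapped by 39, replicate 2 alone by 2 and neither by 0, which allows a share of up to 0.993% when the limit is set at 3 counts of the 302 (the 95% Wilson interval reaches 1.26%). The 2 were at 7587606 to 7588069 (combined rank 2378, replicate 2 rank 811) and at 9645457 to 9645920 (combined rank 1352, replicate 2 rank 12144), and were named after their values were seen. The 39 had replicate 1 ranks 543 to 2829 with a median of 1395, and 4 of them had the highest combined score. Overlap with both was 98.3% (91.1 to 99.7%) in the best 60 V regions and 71.7% (59.2 to 81.5%) in the lowest 60.

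Along V, overlap with both replicates was 88.5% in the left 25% (78.2 to 94.3%), 86.1% and 87.6% in the 2 central parts and 82.5% in the right 25% (70.6 to 90.2%), with intervals that overlap throughout. The centres of the V regions lay a median of 10.0 bp from those of the best-ranked replicate 1 regions they overlapped and 46.0 bp from those of replicate 2, against 10.0 and 43.0 bp on the other chromosomes. The highest score was held by 115 V regions (38.1%, 32.8 to 43.7%), where 39.4% of all combined regions held it, and by 39.6% on the other chromosomes (difference -1.50 points, -7.18 to 4.44, Fisher's exact test, two-sided, p = 0.660, adjusted 0.734). Over the 261 V regions found in both, Spearman's rho between the 2 replicate ranks was 0.314, against 0.258 over 1952 on the other chromosomes. Within V, rho was 0.243 over the 111 of these regions with the highest score and -0.305 over the 150 below it. These are descriptions over regions of the same libraries, and both ranks may have served to choose the combined regions.

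Seen from the replicate lists, V regions were shared less often, a comparison chosen after the data were seen. Of the 3044 V regions of replicate 2, 41.5% overlapped a replicate 1 region (39.8 to 43.3%), where 50.6% of all replicate 2 regions did. The other chromosomes had 52.4% (difference -10.9 points, -12.8 to -8.97, Fisher's exact test, two-sided, p = 3.03e-28, adjusted 3.03e-27). Of the 4533 V regions of replicate 1, 30.7% overlapped a replicate 2 region (29.3 to 32.0%), where 35.4% of all nuclear replicate 1 regions did. The other chromosomes had 36.3% (difference -5.61 points, -7.06 to -4.13, Fisher's exact p = 2.19e-13, adjusted 1.10e-12). The list overlapped is itself less dense on V, which lowers the overlap met by position alone, and its part in the difference was not tested. X came close to V in replicate 2, with 44.7% shared, and IV in replicate 1, with 32.2%. The p-values take regions as independent and do not measure the spread between libraries or chromosomes. Regions also overlap within a list, and the V regions joined into 3835 loci in replicate 1 and 2844 in replicate 2.

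Nearly all regions of the highest ranks were shared on V and on the other chromosomes, which leaves little room for a lower share on V. At ranks 101 to 500, 41 of 41 V regions of replicate 1 were shared, against 93.5% on the other chromosomes, and 47 of 48 V regions of replicate 2, against 95.7% on the others. At ranks 501 to 1000 the V share was 84.6% in each replicate (73.9 to 91.4%), against 83.5% in replicate 1 and 90.6% in replicate 2 on the other chromosomes. At ranks 1001 to 2500 the replicates differed. In replicate 1, 71.6% of the V regions were shared (64.8 to 77.5%), against 74.6% on the other chromosomes (72.2 to 76.9%), with intervals that overlap. In replicate 2, 58.3% of the V regions were shared (51.5 to 64.9%), against 71.6% on the other chromosomes (69.1 to 74.0%). At ranks 2501 to 5000 the V share was 48.9% in replicate 1 (43.4 to 54.4%) and 47.3% in replicate 2 (42.2 to 52.4%), against 57.6% and 58.3% on the other chromosomes. At ranks 10001 to 19048 it was 28.1% in replicate 1 and 34.2% in replicate 2, against 29.8% and 43.7%. Of the V regions shared by the replicates, 23.2% of those in replicate 1 and 23.9% of those in replicate 2 overlapped a combined region, against 26.8% and 27.1% on the other chromosomes. A V region had a median rank of 16112 in replicate 1 and 10339 in replicate 2, against 14828 and 9360 elsewhere.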

How the data were processed

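Per the file headers, positions in the 3 lists that the authors deposited (1 for each ChIP replicate and 1 combined) refer to build WS220 of WormBase. Each line names SPP, a peak caller, and IDR, the irreproducible discovery rate, as its source. The authors gave each region a score of unstated unit, which was used here to rank regions within a list, equal scores being ordered by peak number. The aligner, thresholds, versions, any use of input and the making of the combined list are steps not given in the sources used here. Depth per library is unknown. The combined list has no replicate.

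Regions were counted with Python 3.11.15, numpy 2.4.6, pandas 2.3.3 and scipy 1.17.1 and plotted with matplotlib 3.10.9. The last region end on a chromosome, over the 3 lists, stood for its length (20918708 bp on V), which can only understate it. The 22 mitochondrial regions of replicate 1 were left out. Regions fell into parts of a chromosome by their centre, and overlap meant at least 1 bp. Density ratios have exact conditional binomial intervals, shares Wilson intervals and their differences Newcombe intervals, all at 95% and for counting error only. Tests take regions as independent, and Benjamini-Hochberg adjustment ran over 10 tests, of which 6 were added after the data were seen. For one of these, the contrast of better- and lower-scoring regions between V and the other autosomes, a logistic likelihood ratio test was run first and then replaced by Zelen's exact test. The calculations were tested on simulated data. Chromosome V and the questions asked of it were chosen with earlier results of these data known. The regions named are the 20 highest and 5 lowest of V, those that bound its 5 longest empty stretches and its 5 fullest 100-kb windows. The alternatives were the best-scoring 50%, joined loci, single replicates, equally long lists, other overlap rules and other sets of chromosomes.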

Additional observations from a re-analysis of the deposited data

How the results depend on the processing

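The density of V stayed below that of the other chromosomes in each of the 9 alternatives tried (ratio 0.443 to 0.721). These draw on the same lists and are not a test of the low density, which was known when V was singled out. The central share of V did not keep one outcome, with p-values that were not adjusted here. Its excess over the other autosomes was 13.0 points in the best-scoring 50% (Fisher's exact p = 0.0033), 6.13 points in the best regions of replicate 2 (p = 0.0382) and 6.61 points against all other chromosomes (p = 0.0310). It did not pass Fisher's exact test in joined loci (4.21 points, p = 0.183), the best regions of replicate 1 (4.31 points, p = 0.172) or a narrower central part of equal length to each outer part (1.63 points, p = 0.611). Single replicate lists gave -1.97 points (replicate 1, Fisher's exact p = 0.0145) to 1.40 points (replicate 2, p = 0.168). The contrast of better- and lower-scoring regions between V and the other autosomes passed its threshold both in Zelen's exact test and in the logistic test that had been run before it. The ratio of left to right outer regions, 1.07, was 0.960 in the best-scoring 50%, 0.984 in the best regions of replicate 1 and 0.933 to 0.977 in single replicate lists, never past the test. The difference in overlap with both replicates turned to 1.24 points in the best-scoring 50% (Fisher's exact p = 0.708). The median spacing became 92.9 kb in the best-scoring 50%, and the empty stretches numbered 31 there and 68 at over 100 kb, which follows from fewer regions and a lower limit. The cause was not tested for the remaining changes. No paired analysis was possible because no region list of the input group was analysed here. Ties at the highest score limit the order of 115 V regions.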
